A study of Microcebus murinus with 8 samples.

Results

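The rows mmr-miR-191, mmr-miR-484, mmr-miR-186 and mmr-miR-320a, 4 microRNAs that plasma studies have used as internal references, were described among the 108 microRNAs listed for blood plasma of the grey mouse lemur (Microcebus murinus), a small primate. They were chosen by name, are given below without the mouse lemur prefix mmr-, and all 4 were listed above 0 in each of the 8 samples. The samples came from wild-type animals, 4 on a vegetable fat-based diet (samples 5 to 8) and 4 on a dairy fat-based diet (samples 1 to 4). The labels give no age, sex or length of feeding and no baseline sample, and they do not say whether each sample came from a separate animal, so a p-value here speaks only for the spread among these libraries. The title of the series sets the study's question as whether the source of dietary fat is reflected in plasma microRNAs.

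MicroRNAs are short RNAs that guide the silencing complex to messenger RNAs and lower their translation or stability. In plasma they travel free of cells, bound to Argonaute proteins or lipoproteins or enclosed in vesicles, and they come mainly from blood cells, platelets and the vessel wall. No single RNA serves as a fixed yardstick there, so studies divide by microRNAs thought to be steady, and a reference is of use only if its ratio to other microRNAs does not move with the condition compared. In human, miR-191 is made together with miR-425 from an intron of DALRD3, and miR-186 lies in an intron of ZRANB2. In mouse cells, miR-484 and miR-320 are known to be made without the nuclear Microprocessor complex that cuts most primary microRNA transcripts. The tables give names without the arm of the hairpin, and human has several near-identical miR-320 copies, so reads listed as miR-320a could stem from a close relative. In plasma, release from more cells of a type and more release per cell cannot be told apart.

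Values are reads per 1000000 (RPM) of the 108 listed microRNAs, hence shares of a fixed total. Mature microRNAs are of about the same length, so levels are set side by side without a length correction. They are shares of reads, not of molecules: the labels do not say if copies of one molecule were collapsed, and library preparation does not capture all sequences equally well. The steps between values implied 1061434 to 4004131 reads of the listed microRNAs per vegetable fat library and 1408536 to 3437717 per dairy fat library. MicroRNAs that mark red blood cells (4 of 8 chosen were listed, miR-486, miR-15a, miR-92a and miR-182) summed to between 6.74% and 11.8% of reads on vegetable fat and between 6.14% and 9.92% on dairy fat. Those of platelets (6 of 8 listed) took 0.728% to 1.94% and 0.641% to 1.89%, and those of leukocytes (3 of 6 listed) 0.131% to 0.416% and 0.278% to 0.674%. No liver marker of 4 was among the listed names, and the red cell markers miR-451a, miR-16 and miR-144 were not analysed here.

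The references spanned very different levels. miR-191 was one of the most abundant microRNAs, miR-320a was lower, and miR-484 and miR-186 were scarce and close to each other. miR-191 stood at 207606, 174834, 147356 and 183937 RPM in vegetable fat samples 5 to 8 and at 199469, 182499, 200429 and 154879 RPM in dairy fat samples 1 to 4. It was the most abundant of the 108 in 5 samples, ranked 2 in vegetable samples 6 and 8 and ranked 3 in dairy sample 4. The lowest samples of the diets were vegetable sample 7 and dairy sample 4, and the diets overlapped.

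miR-186, the other reference from a gene's intron in human, stood at 262.6, 235.5, 426.8 and 223.3 RPM in vegetable fat samples 5 to 8 and at 174.6, 234.6, 294.4 and 173.8 RPM in dairy fat samples 1 to 4. Vegetable sample 7 was the highest of the 8, and the diets overlapped although each vegetable fat sample exceeded the median of the dairy fat samples.

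miR-484 stood at 335.3, 359.4, 253.0 and 290.2 RPM in vegetable fat samples 5 to 8 and at 284.0, 151.5, 304.0 and 226.5 RPM in dairy fat samples 1 to 4. Dairy sample 2 was the lowest, and 3 of the 4 vegetable fat samples exceeded the median of the dairy fat samples. miR-484 exceeded miR-186 in 6 of the 8 samples and lay below it in vegetable sample 7 and dairy sample 2, so the order of these neighbours was not fixed.

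miR-320a stood at 6679, 6180, 2921 and 6177 RPM in vegetable fat samples 5 to 8 and at 6596, 3540, 5696 and 4534 RPM in dairy fat samples 1 to 4. Vegetable sample 7 was the lowest of the 8 and dairy sample 2 the next lowest, and the other vegetable fat samples lay within the range of the dairy fat samples or just above it. These were also the samples in which the listed red cell markers took the smallest share of reads, 6.74% in vegetable sample 7 and 6.14% in dairy sample 2. That sum was mostly miR-486, which made up 87.8% of its mean level over the 8 samples. miR-15a did not follow it, with its highest level of the 8 in vegetable sample 7 (3894 RPM, against 801 to 3218 RPM in the other samples). The part of red cells in the miR-320a values was not tested.

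**Figure D1:**
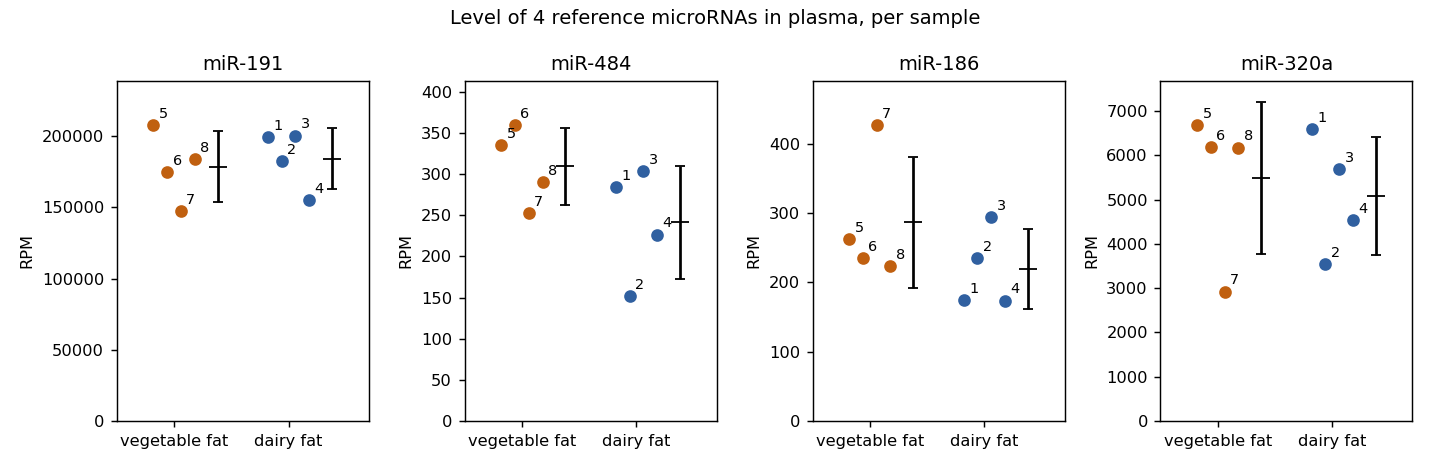
Level in RPM of miR-191, miR-484, miR-186 and miR-320a in each sample, with vegetable fat samples 5 to 8 on the left and dairy fat samples 1 to 4 on the right of each panel; bars are mean ± SD (n = 4 each). The diets overlap in every panel, and vegetable sample 7 is the lowest for miR-191 and miR-320a and the highest for miR-186.

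Steadiness over the 8 samples was first described by the coefficient of variation (CV), the SD of RPM as a percentage of the mean. miR-191 had a CV of 11.95% and ranked 2 among the 108, behind let-7b at 10.4% and ahead of miR-26a at 12.5%. miR-484 had a CV of 23.8% (rank 27), miR-320a of 27.3% (rank 38) and miR-186 of 32.0% (rank 48). The median CV over the 108 was 38.4%, and all 4 lay below it on RPM as deposited. miR-186 did not keep that place under other scalings: its CV was 47.8% (rank 70, median 39.5%) with the trimmed mean of log ratios and 47.6% (rank 68, median 39.1%) with median of ratios.

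Abundant microRNAs varied less on the whole, and the ranks changed when the level was taken into account. Among the 38 microRNAs at a mean of 1000 RPM or more, whose median CV was 24.7%, miR-191 again ranked 2 while miR-320a ranked 26. Among the 33 at a mean of 100 to 1000 RPM, with a median CV of 39.1%, miR-484 ranked 9 and miR-186 ranked 13. miR-320a was thus more variable than most microRNAs at 1000 RPM or more, a class that reaches up to 181533 RPM. Nearer its own mean of 5290 RPM, CVs lay on both sides of its 27.3%. Examples are 14.8% for miR-29a (7079 RPM) and 44.3% for miR-20 (5505 RPM). The CV of miR-320a was 21.9% (rank 26 of 108) with the trimmed mean of log ratios and 21.7% (rank 25) with median of ratios.

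Counting error of reads was small beside this spread. The fewest implied reads in any library were 195237 for miR-191, 6556 for miR-320a, 308 for miR-484 and 237 for miR-186. Counting of reads alone would give a CV of 0.226%, 1.24%, 5.70% and 6.50% at those numbers, in the same order. If copies of one molecule were not collapsed, fewer molecules than reads were counted. The counting error would then be larger by an unknown amount.

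**Figure D2:**
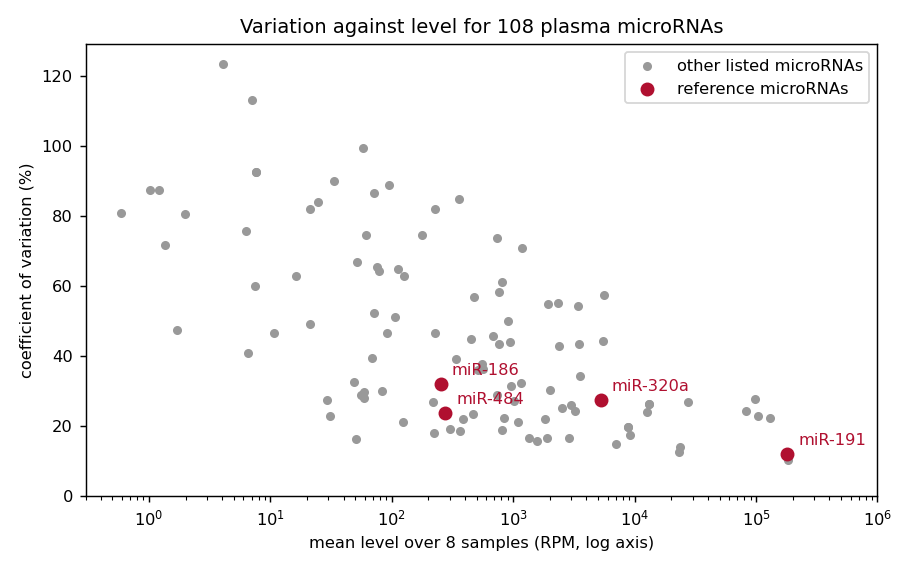
CV over 8 samples (percent) against mean level (RPM, log axis) for the 108 listed microRNAs, with the 4 references in red. miR-191 lies at the lower right at 11.95%, and miR-484, miR-320a and miR-186 lie between 23.8% and 32.0%.

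Within the diets the references did not share one order of steadiness. The CV of miR-191 was 14.0% on vegetable fat and 11.5% on dairy fat, and that of miR-484 was 15.3% and 28.3%. The CV of miR-186 was 33.0% on vegetable fat and 26.2% on dairy fat, and that of miR-320a was 31.5% and 26.2%. Single libraries carried much of these values. Without vegetable sample 7 the CV over the rest was 19.2% for miR-186 and 20.8% for miR-320a, and without dairy sample 2 it was 15.5% for miR-484. The CV of miR-191, a microRNA that makes up a large part of the total it is divided by, also changed with the scaling. Its CV was 17.1% (rank 11) when libraries were scaled by the trimmed mean of log ratios, and 7.38% (rank 1 of 102) when the 6 most abundant other microRNAs were left out of the total. Leaving those out makes miR-191 a larger part of its own total, which by construction narrows its CV. That rank of 1 is thus no measure of steadiness.

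Other microRNAs proposed as circulating references gave a yardstick. From general knowledge 26 were chosen, of which 17 were listed, with a median CV of 30.3%. None of the 17 had a smaller CV than miR-191, the nearest being miR-26a at 12.5%, miR-26b at 13.9% and miR-425 at 16.5%. A CV below that of miR-484 was found for 5 of the 17, below that of miR-320a for 7 and below that of miR-186 for 9. let-7a, let-7g and miR-103a, often used as references, had CVs of 22.4%, 22.9% and 26.4%. miR-23b, miR-221 and miR-126 had CVs of 54.2%, 57.0% and 57.3%.

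The question for a reference is whether its level differs between the conditions compared. Limma was fitted to log2(RPM + 1) of the 104 microRNAs that reached 1 RPM in 4 or more samples, all 4 references included. None of the references differed between vegetable fat and dairy fat at an adjusted p of 0.05. The share called over all microRNAs tested was 0%, with 0 at an unadjusted p under 0.05, and 0 of the 108 had diets that did not overlap (0%).

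miR-191 averaged 178433 ± 24901 RPM on vegetable fat and 184319 ± 21284 RPM on dairy fat (SD, n = 4 each). Its log2 difference, vegetable fat over dairy fat, was −0.05 ± 0.15 (SE), with a 95% interval from −0.39 to 0.29 and a limma adjusted p of 0.999. This interval was the second narrowest of the 104 and corresponds to a fold between 0.765 and 1.22. The interval reached 0.34 to either side of the estimate on the log2 scale. At this spread and with 4 samples a diet, a smaller difference would not have reached an unadjusted limma p of 0.05. Adjustment over the 104 asks for more.

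miR-320a averaged 5489 ± 1728 RPM on vegetable fat and 5091 ± 1335 RPM on dairy fat, a log2 difference of 0.08 ± 0.32 (SE; interval −0.63 to 0.78, limma adjusted p = 0.999). Its sign depended on single libraries, since it was −0.09 without dairy sample 2 and 0.36 without vegetable sample 7.

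miR-484 averaged 309.5 ± 47.4 RPM on vegetable fat and 241.5 ± 68.4 RPM on dairy fat, a fold of 1.31 (log2 0.39 ± 0.31 SE, interval −0.29 to 1.07, limma adjusted p = 0.999). miR-186 averaged 287.0 ± 94.6 RPM on vegetable fat and 219.4 ± 57.5 RPM on dairy fat, a fold of 1.29 (log2 0.37 ± 0.32 SE, interval −0.34 to 1.08, limma adjusted p = 0.999). The interval reached a fold of 2.11 for miR-484 and 2.12 for miR-186 and included 1 for both, so neither an equal level nor a 2-fold higher level on vegetable fat lay outside it. Leaving out dairy sample 2 brought the miR-484 difference to 0.19, and leaving out vegetable sample 7 brought that of miR-186 to 0.16.

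**Figure D3:**
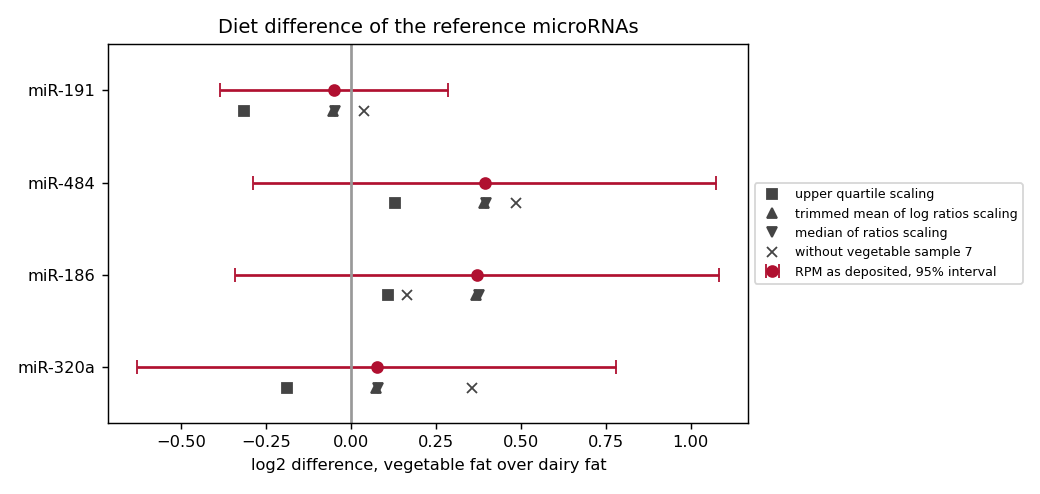
Log2 difference of vegetable fat over dairy fat for the 4 references, with limma's 95% interval on RPM as deposited (red) and the estimates under other scalings or without vegetable sample 7 (grey, below each). Every interval crosses 0, and upper quartile scaling moves all 4 to the left, to between −0.31 and 0.13.

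All estimates carry the common scale of the libraries. The median estimate of all microRNAs was 0.07 on RPM as deposited and −0.19 with upper quartile scaling, a shift of all estimates together. Set against that median, miR-484 and miR-186 lay above it and miR-191 below it under both scalings. miR-320a lay close to the median, at 0.08 on RPM and at −0.19 with upper quartile scaling. Of the 16 other reference microRNAs tested, 0 were called by limma, with 13 estimates above 0 and 3 below and a median of 0.16, against 64 above 0 and 40 below over all 104.

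Ratios between references within a sample do not depend on any scaling and show whether 2 references would give the same answer. The log2 ratio of miR-484 over miR-320a was the steadiest of the 6 pairs, with an SD of 0.33 over the 8 samples, followed by miR-191 over miR-320a (0.34) and miR-191 over miR-484 (0.38). Pairs with miR-186 were looser, at 0.50 with miR-191, 0.55 with miR-484 and 0.76 with miR-320a. The median SD over all 5353 pairs of tested microRNAs was 0.75, and 50.7% of them had a smaller SD than miR-186 over miR-320a. For the other pairs that share was between 6.91% (miR-484 over miR-320a) and 29.2% (miR-484 over miR-186).

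The log2 ratio of miR-186 over miR-320a was −4.66, −4.71, −2.77 and −4.78 in vegetable fat samples 5 to 8 and −5.23, −3.91, −4.27 and −4.70 in dairy fat samples 1 to 4. Vegetable sample 7 was the highest and dairy sample 1 the lowest, 5.50-fold apart. Without vegetable sample 7 its SD was 0.42, and that of miR-484 over miR-320a was 0.16. Without dairy sample 2 the SD was 0.18 for miR-191 over miR-484 and 0.28 for miR-191 over miR-320a. The order of the steadier pairs thus rested on single libraries. The log2 ratio of miR-191 over miR-186 was 8.43 in vegetable sample 7 and 9.53 to 9.68 in the other vegetable fat samples, and its SD without vegetable sample 7 was 0.24.

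Between the diets, the log2 ratio of miR-191 over miR-484 was the one pair of the 6 whose samples did not overlap. It was 9.27, 8.92, 9.18 and 9.30 in vegetable fat samples 5 to 8 and 9.45, 10.2, 9.36 and 9.41 in dairy fat samples 1 to 4. Every vegetable fat sample lay below every dairy fat sample, but the gap between vegetable sample 8 and dairy sample 3 was small. The difference was −0.44 (two-sided exact permutation p = 0.0286, the smallest that 70 assignments can give; adjusted p = 1 over all 5353 pairs). Of the 5353 pairs, 40 did not overlap between the diets (0.747%), and these same 40 had an unadjusted p under 0.05. At an adjusted p of 0.05, 0 passed (0%). With so coarse a p, passing needs most of the 5353 pairs to be at that smallest value. The adjusted result thus says nothing about any single pair. Without dairy sample 2, the highest of the 8, the difference was −0.24.

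The other pairs overlapped between the diets. The log2 ratio of miR-484 over miR-320a averaged −4.09 ± 0.40 on vegetable fat and −4.40 ± 0.16 on dairy fat (SD, n = 4 each; exact permutation p = 0.143). That of miR-191 over miR-186 averaged 9.31 ± 0.59 and 9.74 ± 0.32 (exact permutation p = 0.343), and that of miR-191 over miR-320a 5.08 ± 0.39 and 5.21 ± 0.33 (exact permutation p = 0.514). miR-186 over miR-320a averaged −4.23 ± 0.97 and −4.53 ± 0.57 (exact permutation p = 0.686), and miR-484 over miR-186 averaged 0.15 ± 0.61 and 0.12 ± 0.57 (exact permutation p = 1). Each of these had an adjusted p of 1 over all pairs, where the same limit of the adjustment applies.

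**Figure D4:**
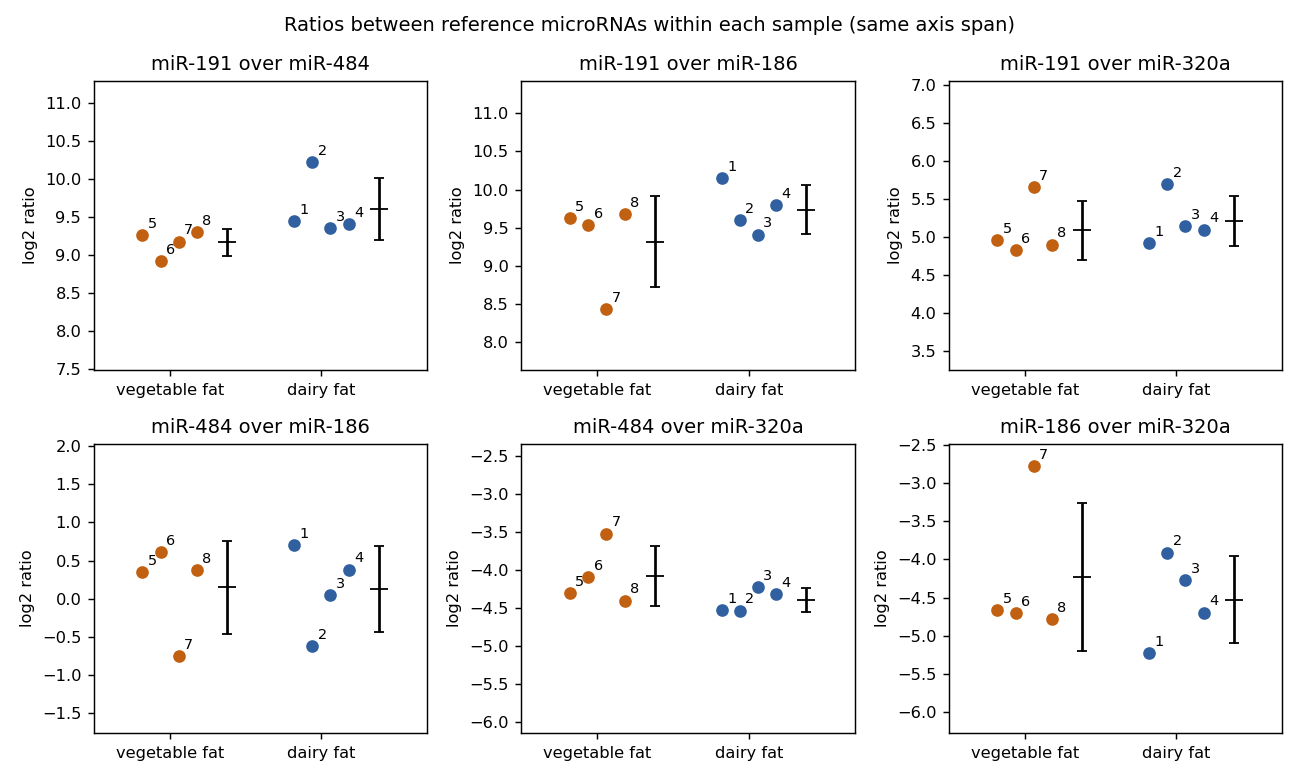
Log2 ratio of each pair of references in each sample, with vegetable fat samples 5 to 8 on the left and dairy fat samples 1 to 4 on the right of each panel and bars for mean ± SD (n = 4 each); all panels span the same number of log2 units. The diets separate in the panel of miR-191 over miR-484, by a small gap, and vegetable sample 7 stands apart from its diet in the panels of miR-191 over miR-186, miR-191 over miR-320a and miR-186 over miR-320a. It is also the lowest of its diet for miR-484 over miR-186, at −0.75 against 0.35 to 0.61.

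Each reference had its own nearest microRNAs, taken as those with the smallest SD of the log2 ratio to it over the 8 samples. These likenesses are descriptions over 8 libraries that share one total each. miR-320a was nearest to miR-486, a microRNA abundant in red blood cells, with an SD of 0.16 and a Pearson r of 0.94 on log2 values. miR-486 stood at 105104, 103365, 54811 and 97515 RPM in vegetable fat samples 5 to 8 and at 87548, 53568, 81168 and 79553 RPM in dairy fat samples 1 to 4. It was low in the same samples as miR-320a, vegetable sample 7 and dairy sample 2. Without any 1 sample the SD stayed between 0.13 and 0.17 and r between 0.92 and 0.96. The next nearest to miR-320a were miR-30a (SD 0.26) and miR-500 (0.28).

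miR-484 was nearest to miR-92a and miR-92b, which held identical values in every sample and count as 1 measurement, with an SD of 0.17 and an r of 0.91. miR-92a, also abundant in red cells, stood at 9936, 9248, 7888 and 9153 RPM in vegetable fat samples 5 to 8 and at 9989, 5535, 10942 and 7454 RPM in dairy fat samples 1 to 4. Dairy sample 2 was the lowest for both, and without it r was 0.71. miR-425 came next, with an SD of 0.22 and an r of 0.86, or 0.57 without dairy sample 2.

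miR-191 was nearest to miR-30a (SD 0.16, r 0.78), miR-361 (0.19, r 0.63) and let-7b (0.21, r 0.23). Without vegetable sample 7 the r with let-7b was −0.65. miR-191 and let-7b had the smallest CVs of the 108, and the small SD of their ratio came with little movement of either. With miR-425, made from the same transcript in human, the log2 ratio of miR-191 ran from 6.72 to 7.12 on vegetable fat and from 6.92 to 7.60 on dairy fat. Its SD was 0.25 over the 8 samples, smaller than that of any pair of references, and 2.24% of all pairs had a smaller one. miR-425 also had a small CV, 16.5% (rank 8 of 108), so this SD need not mean that the 2 moved together. In dairy sample 2 the log2 deviation from its own mean was −0.51 for miR-425 and 0.02 for miR-191.

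miR-186 was nearest to miR-18 (SD 0.22, r 0.87), miR-146b (0.22, r 0.91) and miR-103a (0.22, r 0.85). miR-18 stood at 821.9, 802.9, 1568 and 1092 RPM in vegetable fat samples 5 to 8 and at 711.4, 764.7, 1199 and 728.0 RPM in dairy fat samples 1 to 4. Like miR-186 it was highest in vegetable sample 7 and, within dairy fat, in dairy sample 3. The sets of nearest microRNAs of miR-186 and of miR-484 had no name in common with those of the other references, while miR-191 and miR-320a shared miR-30a.

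**Figure D5:**
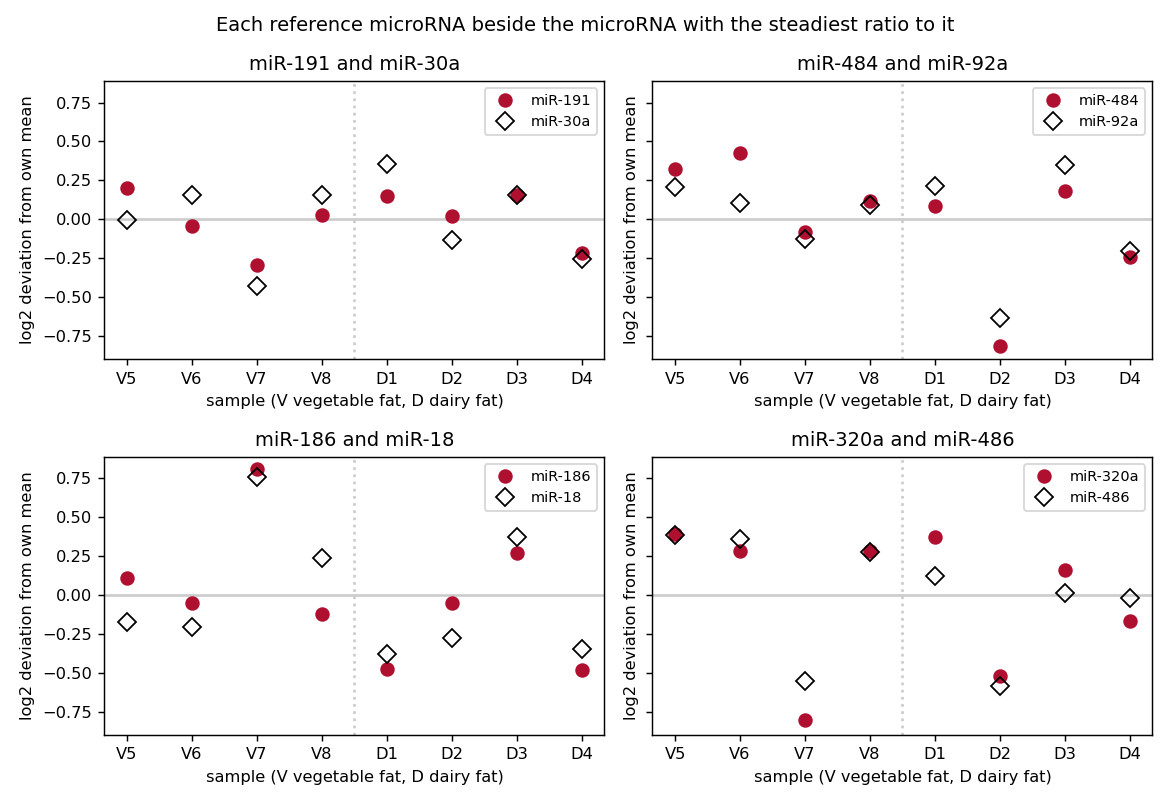
Deviation of log2(RPM + 1) from its own mean over 8 samples, for each reference (red points) and the microRNA with the steadiest ratio to it (open diamonds), in vegetable fat samples V5 to V8 and dairy fat samples D1 to D4. miR-320a and miR-486 are both low in V7 and D2, miR-484 and miR-92a in D2, and miR-186 and miR-18 are high in V7.

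The implied read total of a library counts reads of the 108 listed microRNAs alone and not all reads sequenced. It was set beside the references, because many microRNAs moved with it. With diet in the fit, 34 of 104 microRNAs fell with the implied read total by limma at an adjusted p of 0.05 (32.7%) and 2 rose (1.92%). None of the 4 references was among them. The slope for each doubling of reads was −0.08 on the log2 scale for miR-191 (95% interval −0.38 to 0.21, limma adjusted p = 0.642) and −0.12 for miR-484 (−0.63 to 0.38, limma adjusted p = 0.703). It was 0.38 for miR-186 (−0.11 to 0.87, limma adjusted p = 0.246) and −0.38 for miR-320a (−0.81 to 0.05, limma adjusted p = 0.178). With upper quartile scaling the slope was 0.57 for miR-186 (limma adjusted p = 0.0699) and −0.19 for miR-320a (limma adjusted p = 0.537). The miR-320a slope on RPM passed the threshold without vegetable sample 5 (−0.52, limma adjusted p = 0.0472) and without dairy sample 3 (−0.44, limma adjusted p = 0.0407). Of the 16 other reference microRNAs tested, 6 fell with the read total, miR-126, miR-221, miR-222, miR-23b, miR-24 and miR-22. The number of microRNAs past the threshold was 15 without dairy sample 1 and 21 without vegetable sample 7, against 36 with all libraries.

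Each reference was then used as a divisor for the rest of the table, as a normalizer would be. Before division the median SD of log2 values over the 8 samples was 0.49 for the other 103 microRNAs. After division it was 0.51 by miR-191, 0.60 by miR-484, 0.65 by miR-320a and 0.69 by miR-186. The SD became smaller for 48 of 103 microRNAs after division by miR-191, for 48 by miR-320a, for 24 by miR-484 and for 21 by miR-186. Dividing by the mean log2 value of all 4 gave a median SD of 0.53 for the remaining 100, against 0.50 before, with a smaller SD for 39 of them. Without vegetable sample 7 the values were 0.45 for miR-191, 0.57 for miR-484, 0.52 for miR-320a and 0.54 for miR-186, against 0.44 before division.

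The choice of divisor set the balance of the diet comparison and not its calls. By limma 0 microRNAs (0%) had an adjusted p under 0.05 after division by miR-191, miR-484, miR-186, miR-320a or the mean of all 4. At an unadjusted p under 0.05 there was 1 after division by miR-484, 1 by miR-186 and 0 by each of the others. After division by miR-191, 70 of 103 estimates lay above 0 and 33 below, with a median of 0.12. After division by miR-484, 8 lay above and 95 below, with a median of −0.33, and after division by miR-186 10 lay above and 93 below, with a median of −0.31. Division by miR-320a gave 50 above and 53 below, with a median of −0.01, and division by the mean of all 4 gave 28 of 100 above and 72 below, with a median of −0.14. By construction each estimate was lowered by the divisor's own estimate, so most estimates were below 0 after division by miR-484 or miR-186, none of them past the test.

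Among the 104 tested microRNAs, miR-191 also ranked 11 by the mean SD of its log2 ratios to all others (0.63), miR-320a ranked 30 (0.67), miR-484 ranked 36 (0.69) and miR-186 ranked 59 (0.80). The smallest mean SD was that of miR-532, at 0.58, and the median was 0.76. By this measure, which does not depend on the total, miR-191 stood lower in the order than by its CV.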

How the data were processed

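Plasma small RNA was measured in 8 libraries. Extraction used the miRNeasy Micro kit and library preparation the QIAseq miRNA kit, per the labels' protocols, and reads went through cutadapt 3.4, per the submitters' processing notes. The aligner, counter, microRNA reference and handling of molecular identifiers were not given in the sources used here. Values as deposited are RPM of the 108 listed microRNAs alone, since each sample summed to 1000000. Diets were taken from the sample titles. For vegetable fat, the number in a table's header differs from that in the title, while the diet is the same in both.

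Within a sample every value was a whole multiple of one step (tolerance 0.01 reads), which gave the implied read totals. The planned count tests on these reads were not run, and limma was used, as the design set for RPM. No libraries were alike within counting noise (smallest chi-square 304.1 per degree of freedom). Limma 3.58.1 (R 4.3.3), with trended and robust variance, ran on log2(RPM + 1) for 104 microRNAs, with Benjamini-Hochberg adjustment over all of them and a threshold of 0.05. Fold changes on this scale understate those of scarce microRNAs, slightly for the references and more strongly for microRNAs at a few RPM. Pair ratios were tested by two-sided exact permutation over 70 assignments, adjusted over all 5353 pairs. Python 3.11.15 with scipy 1.17.1 was used. The fits were also run on simulated data with equal, independent noise for every microRNA. That checks the code and not how well the fits suit these data.

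The members, lists and alternatives were chosen with earlier results of these data known. Named are the 4 references, the 3 microRNAs nearest to each, the 3 of smallest CV, listed microRNAs of a list of other references from general knowledge, and cell markers. The class of 100 to 1000 RPM, the ratio of miR-191 to miR-425, the microRNA of smallest mean SD and the SDs without single samples were added after seeing the data. MicroRNA sequences and genome positions were not used here.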

Additional observations from a re-analysis of the deposited data

Results flagged for a closer look

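Of 22 groups of 4 samples examined (4 levels, 6 ratios and the read total in each diet), 6 held a sample far from the other 3, where chance gives about 1 in 20. Several of these share a sample and are not separate events. Vegetable sample 7 had 2921 RPM of miR-320a against 6177 to 6679 in the other vegetable fat samples. The same sample had the lowest log2 ratio of miR-191 over miR-186 of its diet, 8.43 against 9.53 to 9.68. It had the highest ratio of miR-191 over miR-320a, 5.66 against 4.82 to 4.96, and the highest ratio of miR-186 over miR-320a, −2.77 against −4.78 to −4.66. Dairy sample 2 had a log2 ratio of miR-191 over miR-484 of 10.2 against 9.36 to 9.45 in the other dairy fat samples. Dairy sample 1 had 1408536 implied reads against 3103305 to 3437717.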

How the results depend on the processing

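By limma 0 microRNAs passed the threshold in each of the 19 alternatives to the main diet comparison, with 0 to 4 at an unadjusted p under 0.05 and smallest adjusted p from 0.560 to 0.999. The number was also 0 in each of the 45 alternatives run for division by a reference. The edgeR and DESeq2 alternatives were not run. Of 76 refitted diet differences of the references 69 kept their sign, and none was called. The miR-320a difference was −0.19 with upper quartile scaling and −0.0096 with read total as a covariate, and ran from −0.086 to 0.36 with 1 sample left out. That of miR-191 ran from −0.13 to 0.038, of miR-484 from 0.19 to 0.52 and of miR-186 from 0.16 to 0.52. Of 60 refitted ratio differences 53 kept their sign. With 1 sample left out, miR-484 over miR-186 ran from −0.23 to 0.32, miR-186 over miR-320a from −0.19 to 0.50 and miR-191 over miR-320a from −0.32 to 0.033. Slopes on read total with upper quartile scaling were 0.11 for miR-191, 0.070 for miR-484, 0.57 for miR-186 and −0.19 for miR-320a. With 1 sample left out they ran from −0.15 to 0.0049 for miR-191, from −0.30 to −0.029 for miR-484, from 0.24 to 0.46 for miR-186 and from −0.53 to −0.15 for miR-320a. A CV counted as moved when it changed by at least its SE from leaving out 1 sample at a time. This SE was 2.78 percentage points for miR-191 and 13.0 for miR-186. A sample that stands apart widens it. Without vegetable sample 7 the CV was 19.2% for miR-186 (rank 19 of 108), 20.8% for miR-320a (rank 26) and 25.1% for miR-484 (rank 40). None of these counted as moved. The CV of miR-191 moved to 15.7% with upper quartile scaling, 17.1% with the trimmed mean and 16.4% with median of ratios. It also moved to 7.38% without the 6 most abundant others, where miR-191 makes up a larger part of the total. That of miR-186 moved to 47.8% with the trimmed mean and 47.6% with median of ratios. The cause was not tested. With 4 samples a diet, a CV or an SD is itself loose. No paired analysis was possible because samples 5 to 8 and samples 1 to 4 share no number.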
